A study of Mus musculus with 56 samples.

Results

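The peaks described here are the regions of lower H2A.Z that the authors' annotation placed in a 5' untranslated region (5' UTR), the part of a messenger RNA that precedes the coding sequence. They were taken as every row of the authors' annotated list of lower peaks whose annotation began with 5' UTR, which gave 410 of the 9077 lower peaks and of the 61420 H2A.Z peaks in all. The study profiled mouse embryonic stem cells by CUT&Tag, in which an antibody guides the Tn5 transposase to a chromatin target so that the nearby DNA is tagged and sequenced. It has 56 libraries for 10 targets, and the peaks come from the 8 H2A.Z libraries, 4 control and 4 doxycycline-treated (Dox). The other 48 libraries were not analysed here.

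Cells of both groups were of the line RHKI(E14Tg2a), carried an HA-Rnaseh1 knock-in, and grew in 2i/LIF medium whose inhibitors were PD0325901 (1 µM) and CHIR-99021 (3 µM), with FBS at 2%. The Dox group received 500 ng/ml of doxycycline for 48 hours. Both groups carry the same knock-in, and no H2A.Z library came from cells without it, so doxycycline itself and induction of the transgene cannot be told apart. A ZX-1 line appears in the series' design text but on no sample label. The deposited lists give positions and annotation, without the size of a change, its test or the signal of each library. Lower therefore means membership in the authors' list, whose direction was read from its name. The peaks were thus chosen by the H2A.Z difference between Dox and control that the authors measured, and being lower is not a result here. No peak can be ranked by the size of its change, none of the values below has a spread between replicates, and no test over samples was made.

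H2A.Z is a variant of histone H2A that is found on both sides of active and poised gene starts, where the SRCAP and p400 complexes place it. RNase H1 removes the RNA strand of RNA-DNA hybrids, such as those in R-loops, which form when a nascent transcript pairs again with its template behind RNA polymerase. R-loops are known to be common just downstream of CpG-rich starts whose non-template strand is rich in G, and the first exon, which usually holds the 5' UTR, lies there.

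Because sequence around the start is a property that the choice of peaks did not use, stretches just upstream of the starts are shown first, for the 8 widest peaks and for the members at the other extreme. RefSeq sequences of GRCm38.p6, from 250 bases before to 50 after a start, were available for 291 of the 410 peaks, counting a match where the table's start lay within 50 bp of the deposited transcription start site (TSS). Each line gives the 30 bases with the most G on the sense strand in the 250 bases before the start, 5′ to 3′, with runs of 3 or more G in capitals.
Gfi1, chr5:107724344-107724373, minus strand: tgttcgtcgcGGGGctcctggaggttttgg
Zmiz1, chr14:25459152-25459181, plus strand: cggcttttgcGGGaggccggcggcgcGGGG
Gnas, chr2:174327683-174327712, plus strand: atGGGtcggtcctctgaagaggttGGGGcg
Jph4, chr14:55117125-55117154, minus strand: tgtgacaGGGtGGGcgctgtctggtggagg
Inhbb, chr1:119422408-119422437, minus strand: agagcggaGGGaagaGGGGGtGGGaggagg
Pou4f2, chr8:78436706-78436735, minus strand: GGGcGGGGGaGGGaaggaGGGGGaGGGcgg
Kif26b, chr1:178528875-178528904, plus strand: aggcgaggcggcggcggcggcccggcGGGc
Onecut1, chr9:74861842-74861871, plus strand: ggcGGGcgtgaGGGcGGGcagcggcagcgg
Nudcd3, chr11:6200524-6200553, minus strand: aaaatgtggtattataagaaggcgcaccag
Sec24a, chr11:51756948-51756977, minus strand: gccctggctgacctgactaggccgccttcg
The stretch of Pou4f2 holds 23 G and that of Inhbb 20, while Gfi1, with the widest peak, has 13. Nudcd3, with 8, and Sec24a, with 9, have the fewest G among the matched members. Over the 291 starts the median was 17 G in the richest stretch of 30 bases (95% interval of the median 16 to 17), against 16 for lower promoter peaks, 16 for all lower peaks centred 101 to 1000 bp downstream of a start, 15 for peaks in neither list at that position, and 14 over all 32851 starts of the table. Among the 8 widest peaks, the stretch of Gfi1 was below that median of all starts and that of Gnas was equal to it.

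In the whole list the lower peaks made up 14.8% of the H2A.Z peaks, and the 5' UTR class made up 4.52% of the lower peaks (410 of 9077, exact 95% interval 4.10 to 4.96%). None of the 318 higher peaks was in this class, and a count of 0 of 318 allows a share of up to 1.15% (exact interval). Only 3 of the 318 were centred 101 to 1000 bp downstream of the nearest TSS, where most 5' UTR peaks lie. The count of 0 is therefore not a contrast between the classes. All 410 peaks were assigned to protein-coding genes, 409 in number, and all lay in curated NM transcripts. Only a messenger RNA has a 5' UTR, so this follows largely from the class and is not a finding. Genes with a lower peak numbered 6690, of which the 409 are 6.11%. Only Tmcc3, a transmembrane and coiled-coil gene, had more than 1 of these peaks. Its peaks lay at the starts of separate transcripts: chr10:94311418-94312735, which is 1318 bp wide and centred 127 bp from its TSS, and chr10:94514153-94515867, 1715 bp wide and centred 153 bp from its TSS.

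Most of the peaks sat in the first exon. The first exon usually holds the 5' UTR, so this follows largely from the class and is not a finding about lower H2A.Z. Exon 1 held 380 peaks (92.7%, exact 95% interval 89.7 to 95.0%), exon 2 held 27 (6.59%) and exon 3 held 3 (0.732%). The annotated transcripts had a median of 8 exons (quartiles 4 and 15, range 1 to 65), and 15 peaks (3.66%) lay in transcripts with 1 exon only, among them those of Adra2a, Foxe1, Foxq1 and Sox11. Peaks in exon 1 were centred a median of 201.5 bp downstream of the nearest TSS (95% interval 188 to 217) and at most 1386 bp from it. In exon 2 the median was 917 bp (364 to 1604), with a range of 104 to 58370 bp. The 3 peaks in exon 3 were those of Smim38, at 1712 bp, the peak named for Gadd45b, at 22829 bp, and that of Gnaz, which encodes a G protein alpha subunit, at 23784 bp. None of those 3 reached the nearest TSS, while 16 of the 27 peaks in exon 2 and 364 of the 380 in exon 1 did.

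Distances to the nearest TSS ran from 101 to 58370 bp downstream, with a median of 212.5 bp (95% interval 197 to 225), quartiles of 145 and 338.75 bp, and a 90th percentile of 626 bp. A 5' UTR usually lies in the first exon, so the short distances follow largely from the class. The lower end of the range is also set by the annotation and is not a finding. HOMER assigns a peak by its centre and calls it a promoter peak from 1000 bp before to 100 bp after a start, so a 5' UTR peak has to lie beyond that. Just inside the limit, at 101 bp, were the peaks of Mideas, 627 bp wide, Nfkbie, 755 bp wide, Slc25a44, 766 bp wide, and Ucp1, 1019 bp wide. Nfkbie encodes an inhibitor of NF-κB and Ucp1 the uncoupling protein of brown fat. Just outside it, at 100 bp, lower peaks of the promoter class were assigned to Efna4, Krt87, Mok, Pcx and Tnfrsf13c. The border is not sharp, since 203 of the 1713 lower promoter peaks (11.9%) were centred over 100 bp downstream of the nearest TSS, up to 884 bp. Leaving out peaks with no gene name and unnamed gene models, the farthest were Hk1 at 739 bp, Peg10 at 733 bp and Irf2 at 725 bp.

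Within 500 bp of the TSS lay 353 of the 410 peaks (86.1%), and 389 (94.9%) lay within 1 kb. The farthest was that of Ptpn14, a protein tyrosine phosphatase gene, at chr1:189786112-189787165, 58370 bp downstream in exon 2 of 19. Next came Nim1k, a kinase gene, at 27998 bp. The peak named for Rfxap followed at 25449 bp. For that peak the 5' UTR belongs to a transcript of Smad9, a mediator of BMP signalling, and the name Rfxap is that of the nearest start. Likewise the peak named for Gadd45b lies in exon 3 of 4 of a transcript of Gng7, which encodes a G protein gamma subunit. Another peak, named for Trmt112 and 127 bp from its TSS, lies in a transcript of Prdx5, a peroxiredoxin gene. These 3 were the only members whose transcript belonged to another gene than the one named, out of 409 whose transcript could be looked up. In 329 of the 410 peaks (80.2%) the transcript holding the peak was the same as the nearest transcript.

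**Figure D1:**
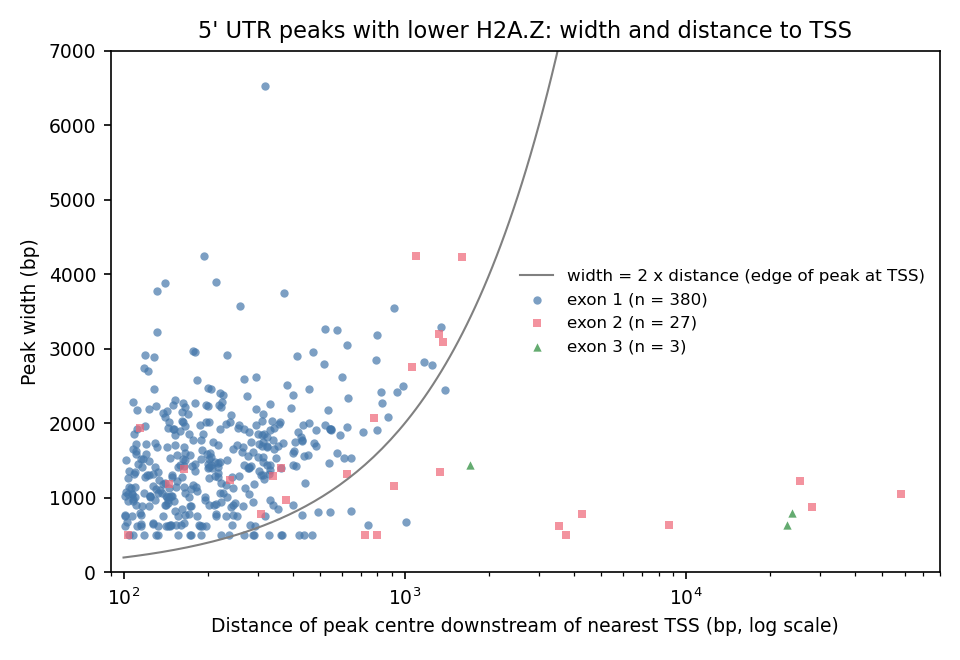
Width of each of the 410 peaks (bp, linear axis) against the distance of its centre downstream of the nearest TSS (bp, logarithmic axis), coloured by exon number. Points left of the grey line cover the TSS, as 380 peaks did, and the points beyond 10000 bp are Ptpn14, Nim1k, Gnaz and the peaks named for Rfxap and Gadd45b.

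Although their centres lay downstream, most peaks reached back across the start. The nearest TSS fell inside the peak for 380 of 410 (92.7%, exact 95% interval 89.7 to 95.0%), a number equal to that in exon 1 although only 364 peaks are in both. The same held for 1586 of 1713 lower promoter peaks (92.6%) and for 486 of 1444 lower peaks in coding or other exons (33.7%). Measured from the TSS, the upstream edge of the 5' UTR peaks lay at a median of -429.5 bp (95% interval -481 to -408) and the downstream edge at a median of 979.5 bp (926 to 1051). In peaks that covered the TSS, a median of 65.5% of the width lay downstream of it, and the downstream position of the centre makes this share exceed 50%. The 30 peaks that did not cover the TSS had a median width of 637.5 bp, against 1487.5 bp for those that did. Kcna1, a voltage-gated potassium channel gene, shows how a centre far from the start can go with a covered TSS: its peak was centred at 1345 bp, was 3291 bp wide, and had its upstream edge at -300 bp from the TSS. Ltbp3, a gene for a TGF-beta binding protein, had a peak centred at a like distance of 1330 bp that was 1341 bp wide and had its upstream edge at 660 bp.

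Peak widths ran from 501 to 6522 bp, with a median of 1436 bp (95% interval 1357 to 1523) and quartiles of 969.25 and 1929.75 bp. The shortest width allowed in the peak set, 501 bp, was that of 24 members (5.85%), against 1399 of all lower peaks (15.4%) and 9590 of all peaks (15.6%). Promoter peaks of the lower list had a median width of 1292 bp, exon peaks 1140.5 bp, intron peaks 1050 bp and intergenic peaks 794 bp. All lower peaks had a median of 1034 bp and peaks in neither list 967 bp. Where position was held, widths of lower and other peaks were close: among peaks centred 101 to 1000 bp downstream of a RefSeq start, the median was 1329 bp for 1558 lower peaks and 1336 bp for 2988 peaks in neither list. Within the 5' UTR peaks, cut into 4 parts by distance, those in the nearest part (median distance 120 bp) had a median width of 1146 bp, and those in the farthest part (median distance 541 bp) 1757 bp.

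**Figure D2:**
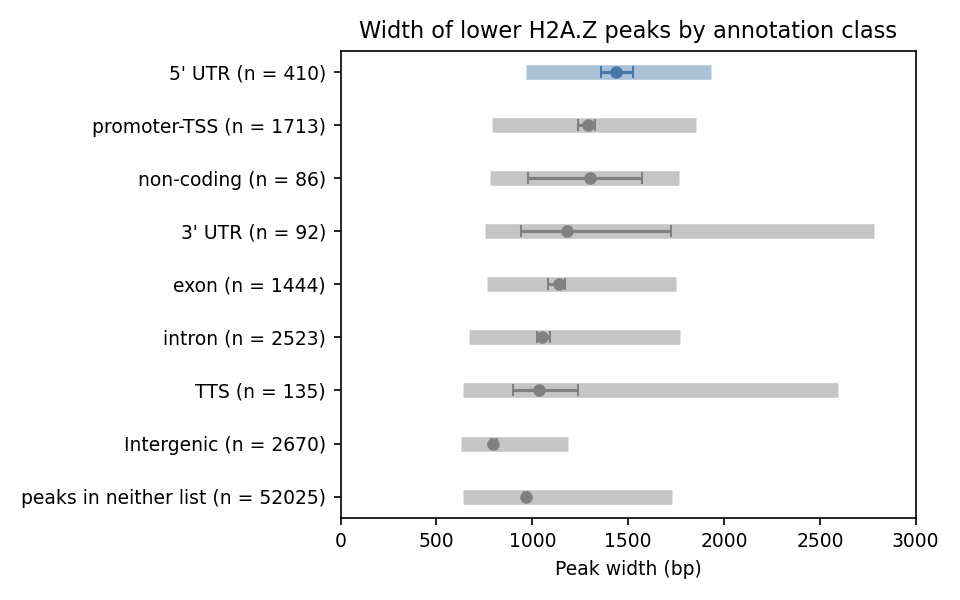
Peak width (bp) for each annotation class of the lower list and for peaks in neither list. Bars span the quartiles, points are medians, and whiskers are 95% intervals of the medians. The 5' UTR class has the highest median, 1436 bp, and the intergenic class the lowest, 794 bp.

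A width of 3 kb or more was found for 18 peaks (4.39%). The widest, at chr5:107720765-107727286, covers the start of Gfi1, which encodes a zinc finger repressor of blood and inner ear development, and spans 6522 bp, from -2942 to 3578 bp relative to the TSS. It was followed by Zmiz1, a gene for a coactivator of the PIAS family, at chr14:25457256-25461503 (4248 bp). The imprinted Gnas locus, which encodes the stimulatory G protein alpha subunit, had a peak of 4245 bp at chr2:174326740-174330984, centred in exon 2 of 13 at 1094 bp. Jph4, a junctophilin gene, had one of 4229 bp at chr14:55113217-55117445, also in exon 2 and centred at 1604 bp. Then came Inhbb, the beta B subunit of activins and inhibins (3902 bp, chr1:119420085-119423986), and Pou4f2, a transcription factor of retinal ganglion cells (3877 bp, chr8:78434569-78438445). The kinesin gene Kif26b had a peak of 3783 bp (chr1:178527366-178531148) and Onecut1, a factor of liver and pancreas, 3751 bp (chr9:74860417-74864167). The last of the 10 widest were those of Hmga2, an embryonic chromatin protein with AT-hooks (3577 bp, chr10:120474421-120477997), and Adra2a, an adrenergic receptor (3553 bp, chr19:54044398-54047950). All 10 covered the nearest TSS.

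The share of H2A.Z peaks in the lower list varied with where the centre lay around a start. This was computed over all peaks by signed distance to the nearest RefSeq start, whatever their annotation, with 59367 peaks on chromosomes that have starts in the table. Of peaks centred 501 to 1000 bp before a start, 16.8% were lower, and of those 101 to 500 bp before it, 20.7% (441 of 2134). Within 100 bp of the start 27.4% were lower (706 of 2574). Downstream the share was 32.5% at 101 to 300 bp (749 of 2305), 38.2% at 301 to 500 bp (442 of 1157, exact 95% interval 35.4 to 41.1%) and 33.7% at 501 to 1000 bp (367 of 1089). It was 24.2% at 1001 to 2000 bp, 12.4% at the same distance upstream, and 11.9% for peaks beyond 2000 bp on either side. Over the stretch of 101 to 1000 bp downstream, where 389 of the 410 peaks lie by their deposited distance, 34.2% of peaks were lower (1558 of 4551). Peak height and signal were not analysed here, so whether stronger peaks are more often found at those positions was not tested.

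Width was held within narrower limits as a check chosen after the data were seen. Among peaks 1001 to 2000 bp wide the share was 21.3% at 101 to 500 bp upstream, 29.7% at 101 to 300 bp downstream, 39.0% at 301 to 500 bp and 36.2% at 501 to 1000 bp. Among peaks of the shortest width it was 16.5%, 34.3%, 39.1% and 21.9% at those positions, and the last of these rests on 21 of 96 peaks. The 301 to 500 bp bin thus had the highest share in each of the 3 sets of widths. The set of all widths contains the narrower ones, so these are not separate checks. Among peaks 1001 to 2000 bp wide the bin's exact interval (35.1 to 43.1%) lay above that at 101 to 300 bp (27.2 to 32.4%). That interval overlapped the one at 501 to 1000 bp (31.3 to 41.3%). At the shortest width the bin's interval (28.8 to 50.1%, 34 of 87 peaks) overlapped that at 101 to 300 bp (27.4 to 41.7%). Peaks of that width also had a share of 24.3% at 1001 to 2000 bp upstream (18 of 74). Of the 1964 lower peaks centred 101 to 1000 bp downstream by the deposited distance, 742 (37.8%) were annotated to introns, 525 (26.7%) to exons, 389 (19.8%) to a 5' UTR and 203 (10.3%) to a promoter. The 5' UTR peaks are therefore a minority of the lower peaks in that stretch.

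**Figure D3:**
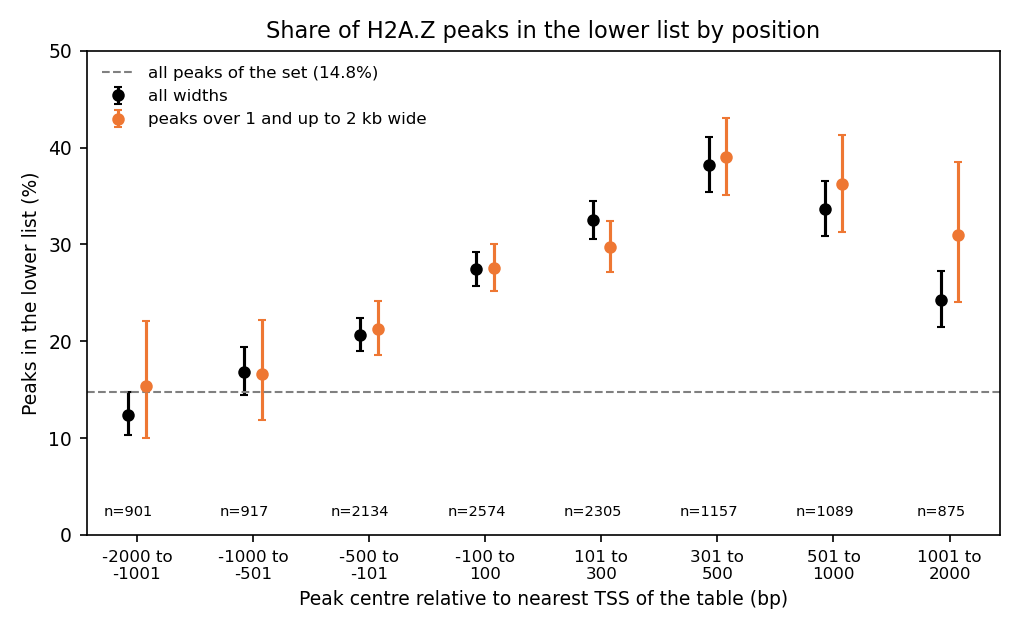
Share of H2A.Z peaks in the lower list (%, with exact 95% intervals) by the position of the centre relative to the nearest RefSeq start, for all peaks (black, numbers of peaks at the foot) and for peaks 1001 to 2000 bp wide (orange). The dashed line is the 14.8% of the whole set, and the share is highest, at 38.2% and 39.0%, in the bin 301 to 500 bp downstream.

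The matched starts were rich in G, C and CpG. Over 300 bases the GC content had a median of 64.7% at the 291 starts with a 5' UTR peak (95% interval 63.7 to 66%), 65.7% at the 1262 matched starts with a lower promoter peak, 55.7% at the starts nearest to the 2988 peaks in neither list centred 101 to 1000 bp downstream, and 52.7% over all starts. The ratio of observed to expected CpG had medians of 0.721 (0.697 to 0.756), 0.771, 0.569 and 0.384 in the same order. GC skew, the excess of G over C on the sense strand divided by their sum, had medians of 0.0202 (95% interval 0 to 0.0360), 0.0102, 0.0162 and 0.0128, and these differ by less than the interval of the first. All 1558 lower peaks centred 101 to 1000 bp downstream, which include 5' UTR peaks, had medians of 62.7% for GC content, 0.695 for the CpG ratio and 0.0138 for GC skew. Starts of 5' UTR peaks thus stood nearer to those of lower promoter peaks and of lower downstream peaks of any annotation than to those of downstream peaks in neither list in the medians of GC and CpG. With width held at 1001 to 2000 bp the median GC content was 65.7% for 156 starts of 5' UTR peaks and 56.7% for 1453 starts of downstream peaks in neither list. The table's starts belong to 27025 genes, against 21900 protein-coding genes, so all starts include those of non-coding genes. Part of the contrast with all starts can thus come from the class, which holds coding transcripts only. Starts of downstream peaks in neither list were also taken whatever their gene type, and without a match to a deposited TSS. Part of their contrast with the 5' UTR peaks can therefore come from class and matching, which was not tested. The 1558 lower downstream peaks were taken in the same way as those in neither list. Tn5 tagging and amplification can depend on base composition, and the part of that in the lists was not tested.

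The range among members was wide. Smim38 had the lowest CpG ratio, 0.0932, with a GC content of 53.7%, and its peak was 1 of the 3 in exon 3. At the start of Kif26b the ratio was 1.09 and at Zmiz1 it was 1.03. Gfi1, despite the widest peak, had a ratio of 0.412 and a GC content of 58%.

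**Figure D4:**
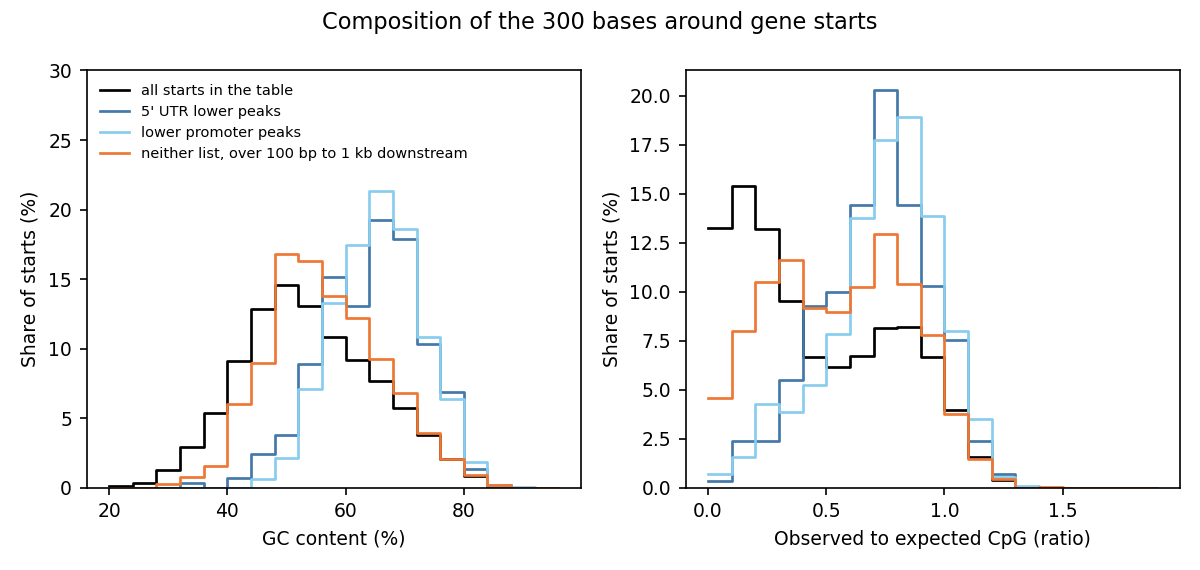
Distribution of GC content (%, left) and of the ratio of observed to expected CpG (right) in the 300 bases around gene starts, as the share of starts in each bin (%). The starts of 5' UTR peaks (dark blue, median GC 64.7%) and of lower promoter peaks (light blue, 65.7%) lie to the right of those of downstream peaks in neither list (orange, 55.7%) and of all starts (black, 52.7%).

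Short motifs were counted in the same 300 bases. GGGCGG, the core of the GC box bound by Sp factors, searched on both strands, was in 72.2% of the starts with a 5' UTR peak (210 of 291), 73.1% of those with a lower promoter peak, 47.0% of those with a downstream peak in neither list and 35.7% of all starts. CCAAT, the NF-Y box, was in 30.2%, 30.7%, 35.7% and 37.4%, on both strands. CCGGAA, the core of ETS sites, was in 16.8%, 24.5%, 17.6% and 14.9%, also on both strands. TATAAA on the sense strand, 45 to 11 bases before the start, was in 5 of 291 (1.72%), against 2.22% of all starts. A pattern of 4 runs of at least 3 G with 1 to 7 bases between them, as in G-quadruplexes, was on the sense strand of 23.4% (68 of 291, exact 95% interval 18.6 to 28.7%), 17.7%, 13.2% and 10.4%. The same pattern of C was in 18.6%, 17.0%, 11.4% and 9.30%. At the starts of all 1558 lower downstream peaks, GGGCGG was in 66.7%, the pattern of G in 20.5% (18.5 to 22.6%) and that of C in 17.8%. The interval for the G pattern overlaps that of the 5' UTR peaks, and the difference was not tested. GGGCGG can overlap a G run, so these counts are not independent, and those of G-rich and C-rich patterns go with the GC content given above. A match describes the letters in the window and says nothing of binding.

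A second start on the opposite strand within 1 kb upstream was in the table for 19 of the 291 members (6.53%), against 3730 of 32851 starts (11.4%). The class itself holds this share down, since a centre up to 1000 bp before the second start is called a promoter peak. The lower share is therefore not a finding. Genes with a 5' UTR peak had a median length of 32370 bp (95% interval 28388 to 40713). Other genes with a lower promoter peak had a median of 25309 bp, other protein-coding genes with any lower peak 21729 bp, and all protein-coding genes 17146 bp.

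Another H2A.Z peak of any kind lay within 5 kb of 88 of the 410 peaks (21.5%). Another lower peak lay there for 32 (7.80%, exact 95% interval 5.40 to 10.8%), against 13.02% of all lower peaks and 10.1% of lower promoter peaks. A peak in neither list lay within 5 kb of 59 (14.4%), and no higher peak lay within 5 kb of any. Higher peaks were only 318 of the 61420 H2A.Z peaks. Counted by assigned gene at any distance, 134 of the 410 (32.7%) had at least 1 further lower peak, against 25.5% of lower promoter peaks and 41.2% of lower exon peaks. Of these 208 further peaks, 84 were intergenic, 72 intronic, 42 exonic and 6 at promoters. Fgfr1, a receptor for fibroblast growth factors, and Smim38 had 4 further lower peaks each. Pde10a, a phosphodiesterase gene, also had 4, all in introns.

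Gene lists were read against the 6.11% of genes with a lower peak that have one in a 5' UTR. Counting only lower peaks within 1 kb of the nearest TSS, that background is 11.3%. Of 66 lists, 29 held no such gene, and 99 of the 409 genes were in at least 1 list. Counts in single lists are small, and no list was tested.

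Among regulators of transcription, 4 of the 28 forkhead genes with a lower peak had it in a 5' UTR, among them Foxe1 (3266 bp wide), Foxq1 (3051 bp) and Foxd1 (1693 bp). Foxe1 acts in the thyroid and Foxd1 in the kidney stroma. The Zbtb zinc finger genes had 4 of 13, namely Zbtb7c (2889 bp), Zbtb18 (2275 bp), Zbtb5 (813 bp) and Zbtb33 (642 bp), the last of which encodes Kaiso, a reader of methylated DNA. Of 13 Sox genes 2 were members, Sox11 (2699 bp) and Sox4 (1846 bp), which act in early neurons. Hox genes had 2 of 19, Hoxc8 and Hoxd3, and both peaks had the shortest width of 501 bp. Zfp zinc finger genes had 8 of 99, or 8.08%, close to the background. Of 23 neuroectoderm factors 3 were members, among them Neurog1 (1416 bp) and Lhx2 (501 bp). Counting only lower peaks within 1 kb of a TSS they had 2 of 13, beside the background of 11.3%. None of 18 mesoderm factors was a member, and 11 of those had a lower peak within 1 kb. Counts this small do not set the neuroectoderm and mesoderm lists apart. Onecut1 was the only member among 11 endoderm factors.

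Of the pluripotency genes, Gbx2, a homeobox gene of the naive state, was 1 of 6 naive genes with a lower peak and had a width of 1602 bp. Lef1, 1 of 6 formative and primed genes, had a width of 2825 bp. Neither of the 2 general pluripotency genes with a lower peak had it in a 5' UTR. None of 3 H2A.Z and exchange complex genes, 6 R-loop processing genes or 16 Polycomb genes with a lower peak was a member. Of these, 2, 3 and 12 had a lower peak within 1 kb of a TSS. Lists this small cannot tell an absence of members from the background of 6.11%, or of 11.3% within 1 kb.

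Signalling genes gave small groups. The lists do not hold every gene of a pathway, so the counts are of list genes only. Members outside them include the Notch-related Nrarp (2132 bp) and Dlk2 (2163 bp), and the growth factor genes Bmp8a (1621 bp) and Gdf10 (1318 bp). In the BMP, Nodal and TGF-beta list 4 of 20 genes were members: the ligand genes Inhbb (3902 bp), Tgfb2 (2417 bp) and Bmp8b (1655 bp), and Ltbp3 (1341 bp). The Wnt list had 3 of 30, with the ligand gene Wnt5b (1772 bp), the secreted activator gene Rspo1 (1115 bp) and the transcription factor gene Lef1, whose peak was centred 1170 bp downstream. Notch genes had 2 of 18, the ligand gene Dll4 (968 bp) and Mfng (1021 bp), a glycosyltransferase of Notch. Fgfr1 (940 bp) was the only member among the 30 genes of the FGF and MAPK list. A separate list of MAP kinase cascade genes had 1 of 18, Mapk9 (1357 bp). Smo (1690 bp), the signal transducer of Hedgehog, was 1 of 9. Hippo genes had 2 of 9, the scaffold gene Sav1 (1411 bp) and the kinase gene Taok2 (501 bp). Phlda3 (1303 bp), a p53 target, was 1 of 2 members among 10 p53 pathway genes, the other being the peak named for Gadd45b, which lies in Gng7.

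The list of phosphodiesterases and adenylyl cyclases, the enzymes that break down and make cyclic nucleotides, had 5 of 15: Pde10a (2965 bp), Adcy8 (2903 bp), Adcy5 (2258 bp), Adcy2 (1688 bp) and Pde8a (1445 bp). All 5 lay within 1 kb of the nearest TSS, where 12 genes of the list had a lower peak and the background is 11.3%. G protein genes had 3 of 18, Gnas (4245 bp), Gng8 (1224 bp) and Gnaz (798 bp).

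Membrane transport gave the largest count. Solute carrier genes had 15 of 124 (12.1%), led by Slc22a23 (2621 bp), Slc24a4, an exchanger of sodium, potassium and calcium (2017 bp), Slc15a3 (1928 bp) and Slc30a10 (1850 bp). All 15 lay within 1 kb of the nearest TSS, where 71 solute carrier genes had a lower peak and the background is 11.3%. Potassium channel genes had 6 of 52, namely Kcna1 (3291 bp, centred at 1345 bp), Kcnk13 (2750 bp, centred at 1063 bp), Kcnk12 (2287 bp), Kcna6 (1601 bp), Kcnk9 (1438 bp) and Kcnc1 (501 bp). Tmem genes had 6 of 74. Laminin and integrin genes had 3 of 15, all of them integrins: Itgb4 (1985 bp), Itgb5 (1705 bp) and Itga3 (1311 bp). Kinesin genes had 3 of 15, with Kif26b, Kif3c (2363 bp) and Kif1b (1927 bp). DNA repair genes had 2 of 11, Rad50 (907 bp), part of the MRN complex, and Lig4 (501 bp), the ligase of end joining.

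Other lists had no member, and none was tested against the background of 6.11%, or of 11.3% for peaks within 1 kb. Among them were protein phosphatase subunits (0 of 26, of which 20 had a lower peak within 1 kb of a TSS), immediate early genes (0 of 17, 8 within 1 kb), collagens (0 of 16, 11 within 1 kb) and Eph and ephrin genes (0 of 14, 6 within 1 kb). Protocadherins (0 of 36) and olfactory and vomeronasal receptors (0 of 67) had few lower peaks near a start at all, with 5 and 10 genes within 1 kb. Whether these genes have H2A.Z peaks of any kind in a 5' UTR was not analysed here, since only the lower and higher lists carry an annotation.

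**Figure D5:**
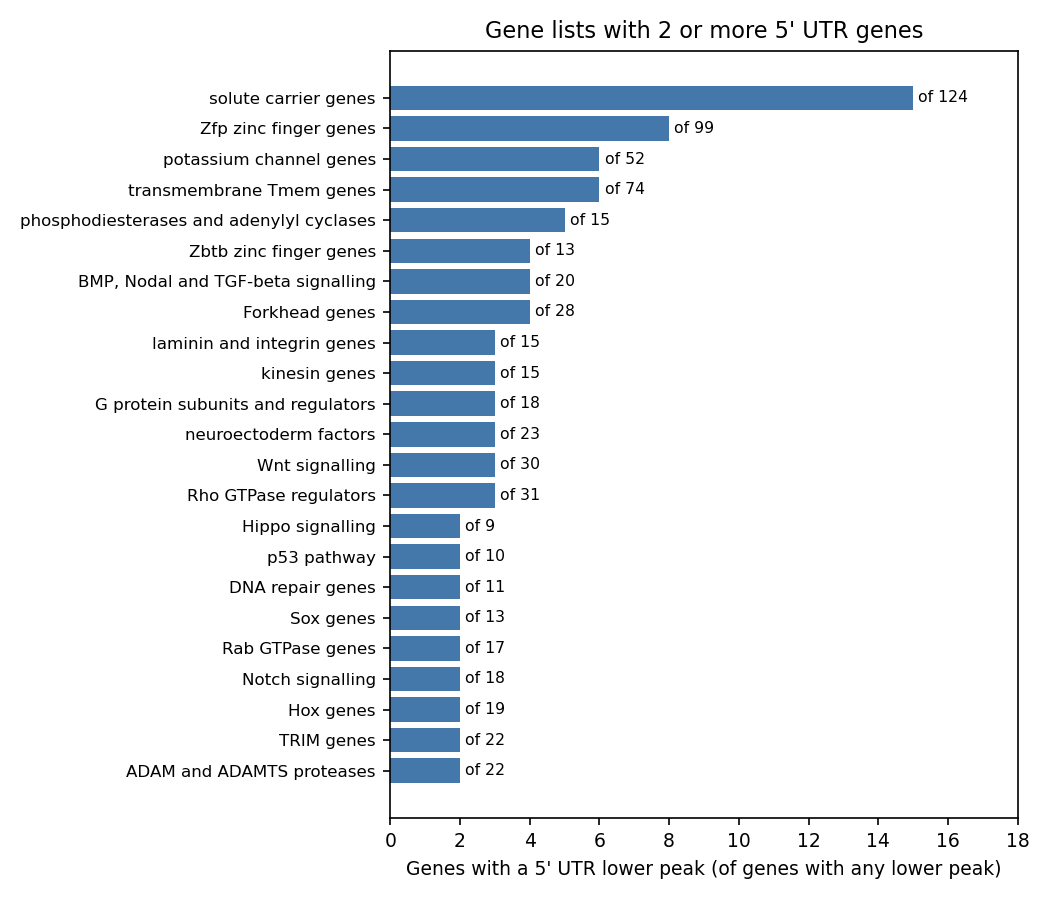
Number of genes with a lower peak in a 5' UTR in each of the gene lists that have 2 or more, with the number of list genes that have any lower peak beside each bar. Solute carriers have the longest bar, 15 of 124, and phosphodiesterases with adenylyl cyclases have 5 of 15.

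Every autosome and the X chromosome held members, from 8 on chromosome 16 to 32 each on chromosomes 5 and 7. The 5' UTR class made up 2.92% of the lower peaks on chromosome 3, the lowest share of the autosomes, and 6.99% on chromosome 12, the highest. On chromosome X it held 14 peaks, 4.62% of the lower peaks there.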

How the data were processed

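H2A.Z was profiled by CUT&Tag in 4 control and 4 Dox libraries. The submitters' processing notes name GRCm38 and the tools HOMER, deepTools, Picard, Bowtie2 and Trimmomatic. How peaks and lists of changed peaks were called, and whether replicates were pooled, is not given in the sources used here. Annotation was by HOMER, per the file headers. The authors deposited positions and distances in bp and a peak score, which is 0 in every row and was not used. No depth per library can be read from these files, so its effect on the lists is unknown.

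Symbols came from Entrez IDs through a RefSeq table (GRCm38.p6), which matched all 410 members; 6 deposited names differed, of which 2 had been turned into dates. Starts are counted from 1. The TSS was placed from the peak centre and the deposited distance. Shares have exact Clopper-Pearson and medians order-statistic 95% intervals, which cover counting only; peaks are not replicates. No test was made, and the scripts were tested on simulated data. Chromosome 18 has no sequences in the promoter table used here.

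Genes named are the 10 widest members, the 5 farthest, those in exon 3, those with several peaks, up to the 4 widest of each list and those at the class border. Others, such as Ucp1 and Efna4 at the border, Smim38 and Fgfr1 for their further peaks, and Nudcd3 and Sec24a for few G, were chosen after their values were seen. The members and the gene lists were chosen with earlier results of these data known. Python 3.11.15, pandas 2.3.3, SciPy 1.17.1, numpy 2.4.6 and matplotlib 3.10.9 were used.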

Additional observations from a re-analysis of the deposited data

How the results depend on the processing

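Of 32 alternatives to 12 results, 20 left the value within its interval and 12 moved it. Some of the 20 could not have moved it. All members lay in NM transcripts, every lower peak was in the peak set, and no member was centred upstream of its TSS. Keeping NM transcripts only, allowing any overlap with the set, and using signed distance therefore repeated the main value. Without peaks of the shortest width the 5' UTR share of lower peaks was 5.03% in place of 4.52%, and 95.3% in place of 92.7% covered the nearest TSS. A TSS within 500 bp of the centre was found for 86.1%. Another peak lay within 2.5 kb of 4.15% and within 10 kb of 44.6%, in place of 21.5% within 5 kb. Counting only lower peaks within 1 kb of the TSS, 11.3% of genes in place of 6.11% had one in a 5' UTR. In the 50 bases after the start the median GC content was 68%, the CpG ratio 0.833 and the GC skew 0.0857. In the last 100 bases before it they were 68%, 0.788 and 0.0411, in place of 64.7%, 0.721 and 0.0202. These moves follow from fewer peaks, other windows or another part of the sequence. The higher GC skew in the 50 bases after the start was not particular to the members. There it was 0.0714 for lower promoter peaks and 0.0667 both for downstream peaks in neither list and for all starts. Those values lie within the members' 95% interval of 0.05 to 0.12. Lower promoter peaks also had a GC content of 68% and a CpG ratio of 0.865 there. Exon 1 share, median distance and median width stayed within their intervals under each alternative run.

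Leaving out each replicate was not run, since the files analysed hold no value per library. No paired analysis was possible because the lists carry no columns of samples. With membership as the only measure, neither the size of the decrease nor its spread can be given.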

Other observations

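Some small families recurred among the 409 genes. They were picked after the members had been seen, so their counts are a description only, beside the 6.11% of all genes with a lower peak. Counting only lower peaks within 1 kb of a TSS, the background is 11.3%, and counts on that basis are in brackets as within 1 kb. Ionotropic glutamate receptors had 3 of 12 genes (3 of 9 within 1 kb), with Grin3a (1732 bp wide), Grin1 and Grin2c (501 bp each). Alpha 2 adrenergic receptors had Adra2a (3553 bp) and Adra2c (2782 bp), both in transcripts with 1 exon. They were 2 of 7 adrenergic receptor genes with a lower peak (1 of 5 within 1 kb). Polypeptide GalNAc transferases, which start O-linked glycosylation, had 3 of 10 (3 of 8 within 1 kb). Receptor tyrosine kinases had 5 of 27 (5 of 18 within 1 kb), namely Flt1, Alk, Ret, Flt3 and Fgfr1. Genes of heparan sulphate and its core proteins had 5 of 22 (5 of 15 within 1 kb), with Xylt1, Hs3st2, Gpc1, Extl1 and Sdc2. Acid-sensing ion channels had 2 of 4 (2 of 3 within 1 kb), Asic2 and Asic1. Both Bmp8 genes and both Smoc genes were members.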
